A study of Mus musculus with 6 samples.

Results

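The mRNA levels of 10 transcription factors that direct myeloid blood formation were read in sorted leukaemia stem cells of mice with and without the lysophospholipase D gene Gdpd3. The factors are Spi1 (which encodes PU.1), Cebpa, Cebpb, Cebpd, Cebpe, Gfi1, Irf8, Klf4, Myb and Myc. They were picked by name from the 36976 genes listed. Of the 10, 9 stood in the list under their own name, and Spi1 stood under its older name Sfpi1 and was matched by its gene identifier (ENSMUSG00000002111.8).

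The study asked how loss of Gdpd3 alters gene expression in long-term stem cells of chronic myelogenous leukaemia (LT-CML stem cells), and it sequenced 3 Gdpd3+/+ libraries (replicates 1, 2 and 3) and 3 Gdpd3-/- libraries (replicates 5, 6 and 7). Both genotypes were on the C57BL/6 background and both carried SCL-tTA and TRE-BCR-ABL1, so that in each group BCR-ABL1 came on when doxycycline was withdrawn at 5 weeks of age, in the cells in which the SCL enhancer drives tTA. Bone marrow was taken 5 weeks after that induction, and CD150+CD48-CD135- cells of the lineage-negative, Sca-1+, cKit+ gate (LSK) were sorted. The Gdpd3+/+ RNA came from 22 male and 12 female mice and the Gdpd3-/- RNA from 5 males and 5 females, so a difference in sex ratio and in the number of pooled animals cannot be told apart from genotype. The paper calls the 3 samples of each genotype biologically independent, but neither it nor the labels say how the mice were divided among them. If the pools were not separate, the p-values measure only the spread between these RNA samples, which may be technical.

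The Gdpd3-/- allele is a deletion of 5 bases in the coding sequence, so its mRNA need not be lost. Gdpd3 itself was at 7.30, 3.29 and 2.95 FPKM (fragments scaled by gene length and library depth) in the Gdpd3+/+ libraries and at 0.110, 0.0129 and 0.681 FPKM in the Gdpd3-/- libraries. No Gdpd3-/- library reached the lowest Gdpd3+/+ library. The log2 fold change was -4.00 (SE 0.77, limma adjusted p = 0.0588).

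PU.1 and the C/EBP family turn on the genes of granulocytes and monocytes, with C/EBP alpha acting at the entry to the granulocyte-monocyte path and C/EBP epsilon late in it, when neutrophil granules are filled. Gfi1 represses monocyte genes and favours neutrophils, whereas Irf8 and Klf4 favour monocytes and dendritic cells. Myb keeps progenitors immature and dividing, and Myc drives growth and ribosome production.

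The sorted population was checked against its markers first. Of the 3 genes selected for by the sort, Kit had 128 ± 3.15 FPKM in Gdpd3+/+ and 118 ± 15.9 in Gdpd3-/- cells (mean ± SD, n = 3 each), Ly6a (Sca-1) had 382 and 444 mean FPKM, and Slamf1 (CD150) 10.7 and 8.79. Of the genes selected against, 5 of 6 had mRNA in both genotypes. Flt3, which encodes CD135, was at 11.0, 10.6 and 9.80 FPKM in Gdpd3+/+ and at 46.5, 37.8 and 36.8 FPKM in Gdpd3-/- libraries, and it rose by the test across all genes (log2 fold change 1.93, SE 0.13, limma adjusted p = 0.00562). That call was lost without Gdpd3+/+ replicate 1 or 2 (limma adjusted p = 0.0705 and 0.0502). Cd48 had 41.9 mean FPKM in Gdpd3+/+ and 65.9 in Gdpd3-/- cells (limma adjusted p = 0.188), Itgam 20.8 and 7.85, Ly6g 30 in both, and Cd4 0.857 and 1.27. Cd8a was listed at 0 in 4 of 6 libraries and at no more than 0.0012 FPKM in the rest. The gate also excluded cells with Ter119 and with B220, a form of the Ptprc protein that levels of whole genes do not separate.

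Levels were tested as log2(FPKM + 0.1) with limma over the 24689 genes that had a mean of at least 0.05 FPKM, with Benjamini-Hochberg adjustment across that whole set. All 10 factors passed this filter. The fold changes of low genes are understated on this scale. As deposited, the FPKM of the median gene lay 0.24 higher in Gdpd3-/- cells on the log2 scale. A scaling by trimmed mean of log ratios (TMM-like) brought that median to 0.0637 and quantile normalization brought it to -0.00631, so a fold change of 0.24 here is that of a typical gene. Each factor is set against it below.

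Of the 10 factors, 1 was called at an adjusted p under 0.05, Cebpe, which was lower in Gdpd3-/- cells. Among all genes tested, 0.616% were called lower, 1.09% higher and 1.71% in either direction (152, 270 and 422 genes). An unadjusted p under 0.05 was reached by 5 of the 10 factors and by 22.2% of all genes (5493), the share against which each such count below stands. With TMM-like scaling the split turned to 118 higher and 232 lower genes, and with quantile normalization to 119 and 206. Without Gdpd3+/+ replicate 1, 2 or 3 the number of called genes was 0, 1 and 21 (0%, 0.00402% and 0.0845% of those tested), and 0 of the 10 factors were called. Without Gdpd3-/- replicate 5, 6 or 7 it was 187, 462 and 3413 (0.788%, 1.94% and 14.2%), and Cebpe remained the only factor called. The Gdpd3-/- libraries varied more than the Gdpd3+/+ ones, while this fit weighs all libraries alike. Array weights from limma, low for libraries that vary more, were 0.226 to 0.456 and 2.35 to 4.19. With these weights 240 genes were called, and Cebpe had a limma adjusted p of 0.0356. The median log2 fold change of the 10 factors was -0.01, and 4 of them lay above the median of all genes.

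Counted by overlap alone, 3 factors had every Gdpd3-/- library above every Gdpd3+/+ library (Cebpb, Irf8 and Klf4), as did 23.5% of all genes tested. A further 2 had every Gdpd3-/- library below (Cebpd and Cebpe), as did 8.27% of all genes. With TMM-like scaling 3 factors lay above and 4 below, when Gfi1 and Myb joined the lower ones, against 15.3% and 14.5% of all genes. With quantile normalization 3 lay above and 3 below, Gfi1 being the addition, against 13.6% and 15.5%. For single genes a two-sided exact permutation test over the 20 ways to split the 6 libraries cannot go below p = 0.1, which is the value for each of the 5 factors without overlap in the deposited values.

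**Figure D1:**
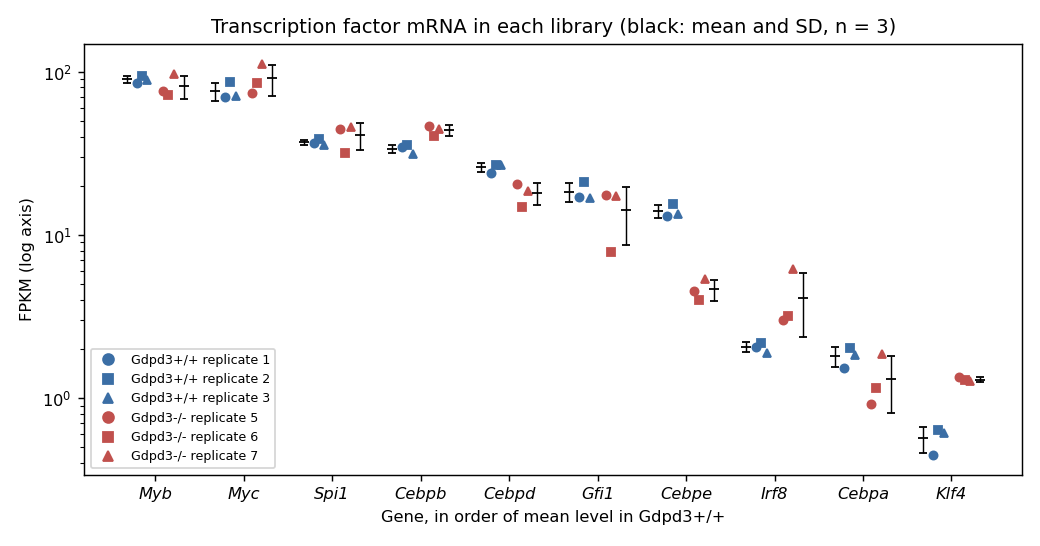
FPKM of the 10 factors in each library on a log axis, ordered by the mean level in Gdpd3+/+ cells, with the mean and SD of each group (n = 3) in black. The groups are apart for Cebpb, Cebpd, Cebpe, Irf8 and Klf4, and Gdpd3-/- replicate 6 is the low library for Gfi1 at 7.88 FPKM.

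FPKM is per length of gene, so levels of different genes can be set side by side, as far as the length used for each is that of its mRNA. This length was 7055 bases for Irf8, 2634 for Cebpa and 1238 for Cebpe, so the order depends on it. In Gdpd3+/+ cells the order from the highest mean level was Myb, Myc, Spi1, Cebpb, Cebpd, Gfi1, Cebpe, Irf8, Cebpa and Klf4. Only Myb and Myc, and Irf8 and Cebpa, had libraries that overlapped with those of their neighbour in this order. In Gdpd3-/- cells Myc stood before Myb and Cebpb before Spi1 by their means, but in both pairs the libraries overlapped. There Cebpd and Gfi1, Cebpe and Irf8, and Cebpa and Klf4 overlapped as well, so the clear step between Cebpe and Irf8 in Gdpd3+/+ cells (14.0 against 2.06 mean FPKM) was not seen (4.64 against 4.12). Myb and Myc were ranked 1 or 2 of the 10 in each of the 6 libraries. Cebpa and Klf4 were ranked 9 or 10 and rested on few reads. If the whole steps in the deposited values are covered bases, which is an assumption, a library held between 35 and 225 reads of 150 bases for Cebpa and between 45 and 96 for Klf4. For Cebpe it was 535, 806 and 683 reads in Gdpd3+/+ and only 80, 121 and 111 in Gdpd3-/- libraries. Irf8, with its longer length, had 302, 548 and 724 reads in the Gdpd3-/- libraries.

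Cebpe, the late granulocyte factor, was the factor that fell. It was at 13, 15.5 and 13.5 FPKM in the Gdpd3+/+ libraries and at 4.54, 4.01 and 5.37 FPKM in the Gdpd3-/- libraries. All 3 Gdpd3-/- libraries lay below all 3 Gdpd3+/+ libraries, with no overlap. The means were 14.0 ± 1.34 and 4.64 ± 0.681 FPKM (SD, n = 3 each), so the level was 3.02-fold lower without Gdpd3. On the log2 scale the change was -1.58 (SE 0.16, 95% CI -1.97 to -1.19, limma adjusted p = 0.0197), and -1.82 relative to the median of all genes. The call was lost when Gdpd3+/+ replicate 1, 2 or 3 was left out (limma adjusted p = 0.153, 0.147 and 0.148), with log2 fold changes of -1.63, -1.50 and -1.61. Over all alternatives chosen in advance its adjusted p ran from 0.00617 to 0.153.

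Cells that are fewer and cells that hold less of an mRNA cannot be told apart in bulk RNA, here and for every level that follows. Late granulocyte genes were read beside Cebpe through 10 markers of mature neutrophils. Their summed level was 27600, 23600 and 25800 FPKM in Gdpd3+/+ and 13300, 6380 and 7300 FPKM in Gdpd3-/- libraries. S100a8 was the most abundant of them (12600 and 4370 mean FPKM), and none was at 0 throughout. Of the 10, Camp, Ltf and Ngp were called lower and 0 were called higher, beside 0.616% and 1.09% of all genes. The median log2 fold change of the 10 was -1.41. The number called lower was 0 without Gdpd3+/+ replicate 1, 2 or 3, and 6, 1 and 5 without Gdpd3-/- replicate 5, 6 or 7. In the latter 3 fits 0.788%, 1.94% and 14.2% of all genes were called in either direction. The number called lower was 0 with no filter or no intensity trend, 1 with a pseudocount of 1 and 5 with TMM-like scaling. Ly6g, a defining marker, was at 30 mean FPKM in both genotypes, and Cxcr2 was at 5.80 and 3.61. The part of these markers in the level of Cebpe was not tested.

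The other C/EBP factors did not share a direction. Cebpd, an acute-phase and monocyte-granulocyte factor, was at 24.0, 26.9 and 26.8 FPKM in Gdpd3+/+ and 20.5, 14.9 and 18.5 FPKM in Gdpd3-/- libraries. The groups did not overlap, and the log2 fold change was -0.53 (SE 0.15, 95% CI -0.88 to -0.19, limma adjusted p = 0.104). Cebpb, the factor of emergency granulocyte production, was at 34.4, 35.3 and 31.5 FPKM in Gdpd3+/+ and 46.5, 40.1 and 44.4 FPKM in Gdpd3-/- libraries. All 3 Gdpd3-/- libraries lay above, with a log2 fold change of 0.37 (SE 0.10, 95% CI 0.13 to 0.62, limma adjusted p = 0.108), which was 0.13 above the median of all genes. With TMM-like scaling the log2 fold change was 0.18 (limma adjusted p = 0.351), 0.11 above that median. Cebpa was at 1.54, 2.04 and 1.84 FPKM in Gdpd3+/+ and 0.925, 1.15 and 1.87 FPKM in Gdpd3-/- libraries. Here Gdpd3-/- replicate 7 lay among the Gdpd3+/+ libraries, and the log2 fold change was -0.48 (SE 0.35, limma adjusted p = 0.450). Cebpa was -0.75 without replicate 7, -0.27 without replicate 5, -0.30 with a pseudocount of 1 and -0.94 with quantile normalization. Relative to the median of all genes Cebpd was at -0.77 and Cebpa at -0.72.

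Spi1, which encodes PU.1, was at 36.3, 38.5 and 35.6 FPKM in Gdpd3+/+ and at 44.4, 31.8 and 45.9 FPKM in Gdpd3-/- libraries. The groups overlapped, since replicate 6 was the lowest and replicates 5 and 7 the highest of the 6. Its log2 fold change was 0.13 (SE 0.16, 95% CI -0.25 to 0.50, limma adjusted p = 0.630), was 0.05, 0.29 and 0.03 without Gdpd3-/- replicate 5, 6 or 7, and turned to -0.07 with TMM-like scaling and -0.01 with quantile normalization. It lay at -0.11 relative to the median of all genes.

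Irf8 was at 2.07, 2.19 and 1.90 FPKM in Gdpd3+/+ and at 3.02, 3.20 and 6.14 FPKM in Gdpd3-/- libraries. Every Gdpd3-/- library was higher, and replicate 7 was well above the rest. The log2 fold change was 0.90 (SE 0.32, 95% CI 0.14 to 1.65, limma adjusted p = 0.168), and it was 0.66 above the median of all genes. It was 0.58 without replicate 7 (limma adjusted p = 0.130) and 0.59 with quantile normalization (limma adjusted p = 0.373). With replicates 5 and 6 of Gdpd3-/- left out together, an alternative chosen after the data were seen that leaves a single Gdpd3-/- library assumed to vary like the Gdpd3+/+ ones, the log2 fold change was 1.53 (limma adjusted p = 0.0258).

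Klf4, which acts after Irf8 in monocytes, was at 0.447, 0.640 and 0.611 FPKM in Gdpd3+/+ and at 1.35, 1.30 and 1.27 FPKM in Gdpd3-/- libraries. The 3 Gdpd3-/- libraries were close together and above all 3 Gdpd3+/+ libraries, a level 2.30-fold higher by the means. The log2 fold change was 1.09 (SE 0.33, 95% CI 0.29 to 1.88, limma adjusted p = 0.128), and it was 0.85 above the median of all genes. It was 0.91 with TMM-like scaling, 0.51 with quantile normalization and 0.56 with a pseudocount of 1.

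Gfi1, which opposes the monocyte genes, was at 17.1, 21.0 and 16.9 FPKM in Gdpd3+/+ and at 17.6, 7.88 and 17.2 FPKM in Gdpd3-/- libraries. Only replicate 6 was low, and the other Gdpd3-/- libraries lay among the Gdpd3+/+ ones. The log2 fold change was -0.44 (SE 0.32, 95% CI -1.21 to 0.32, limma adjusted p = 0.450) and was -0.06 without replicate 6. Relative to the median of all genes it was -0.68.

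The progenitor factors Myb and Myc overlapped between genotypes. Myb was at 85.4, 94.4 and 88.9 FPKM in Gdpd3+/+ and at 75.9, 71.7 and 96.2 FPKM in Gdpd3-/- libraries (log2 fold change -0.15, SE 0.13, limma adjusted p = 0.510). Myc was at 69.5, 86.6 and 71.1 FPKM in Gdpd3+/+ and at 74.1, 85.7 and 112 FPKM in Gdpd3-/- libraries (log2 fold change 0.25, SE 0.17, limma adjusted p = 0.441). Relative to the median of all genes Myb was at -0.39 and Myc at 0.01. Myb was -0.28 without Gdpd3-/- replicate 7, -0.07 without replicate 6 and -0.35 with TMM-like scaling. Myc was 0.08 without replicate 7, 0.38 without replicate 5 and 0.05 with TMM-like scaling. For both genes Gdpd3-/- replicate 7 was the highest of the 6 libraries. The 95% interval was -0.46 to 0.16 for Myb and -0.17 to 0.66 for Myc.

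**Figure D2:**
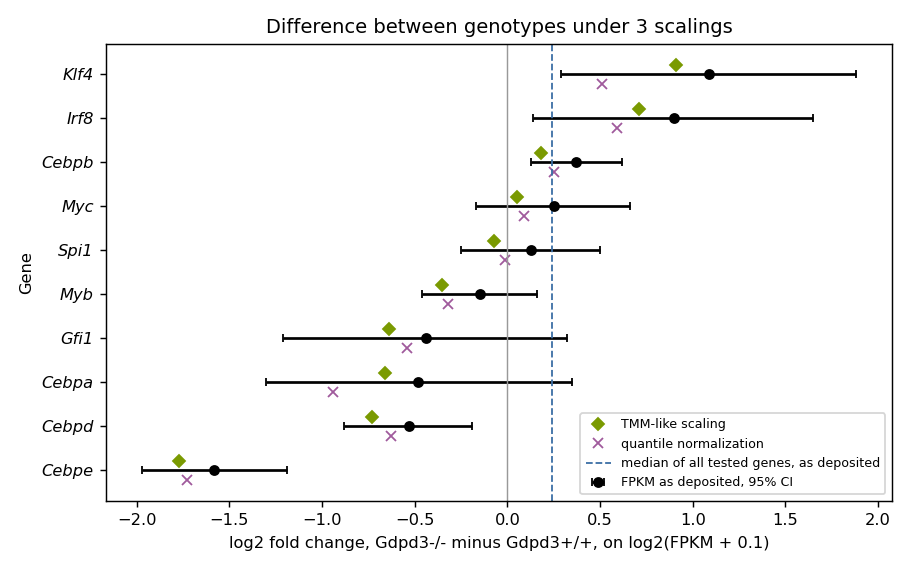
Log2 fold change of each factor, Gdpd3-/- minus Gdpd3+/+, on the deposited FPKM with its 95% confidence interval from limma, beside the values after TMM-like scaling and quantile normalization. The dashed line is the median of all tested genes at 0.24, and Cebpe at -1.58 is the lowest value.

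Ratios of factors within a library stay the same when all values of that library are multiplied by the same number. Quantile normalization is not of that kind and can change them. After it the log2 fold change was 0.51 for Klf4 and 0.59 for Irf8, against 1.09 and 0.90 as deposited. The ratios given here are of deposited values. Gfi1 was 8.23, 9.61 and 8.86 times Irf8 in FPKM in the Gdpd3+/+ libraries and 5.84, 2.46 and 2.81 times in the Gdpd3-/- libraries. Each Gdpd3-/- ratio was lower, and the mean log2 ratio differed by -1.37. Cebpe was 8.45, 7.63 and 7.34 times Cebpa in Gdpd3+/+ and 4.91, 3.50 and 2.87 times in Gdpd3-/- libraries, a difference of -1.09 without overlap. The Cebpa to Spi1 ratio was lower in all 3 Gdpd3-/- libraries (difference -0.64 on the log2 scale, -0.35 without Gdpd3-/- replicate 5), and the Myc to Myb ratio higher (0.40). These 4 ratios each gave p = 0.1 in the two-sided exact permutation test, the smallest it can give, and 0.125 after Benjamini-Hochberg adjustment over the 5 ratios. The Klf4 to Irf8 ratio overlapped (difference 0.30, exact permutation p = 0.6, adjusted p = 0.6), since Gdpd3-/- replicate 7, high in Irf8, had a ratio of 0.206. That difference was 0.13 without Gdpd3+/+ replicate 1, and 0.09, 0.16 and 0.64 without Gdpd3-/- replicate 5, 6 or 7.

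**Figure D3:**
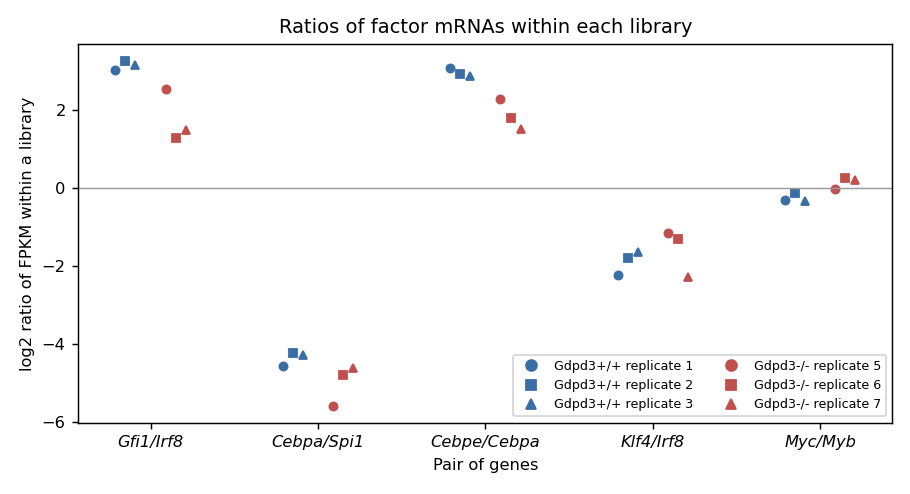
Log2 ratio of FPKM within each library for 5 pairs of factors, with 3 libraries for each genotype. Gfi1 to Irf8, Cebpa to Spi1, Cebpe to Cebpa and Myc to Myb do not overlap between genotypes, and Klf4 to Irf8 does.

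The genes with the profile nearest to a factor were sought among the 6723 tested genes with a mean of at least 10 FPKM, by the root mean square difference of log2(FPKM + 0.1) profiles centred on their mean over the 6 libraries. With 6 points in 2 groups, such nearness is a description. For Cebpe the nearest were Igsf6 (0.109), Gsr, which encodes glutathione reductase (0.123), and Ap3s1-ps1 (0.127). For Irf8 they were the immediate early gene Fos (0.15), Klf6 (0.15) and Gm17507 (0.156). Nearest to Klf4 were Tmsb10 (0.0474) and 2 gene identifiers that are now both called Gm9844 (0.051 and 0.076). Myb was nearest to Rps6ka1 and Actn4, and Myc to Gm25951, the ribosome biogenesis gene Bop1 and Irf2bp1. Spi1 was nearest to Celf1, Akip1 and Mtf2, Cebpa to Uvrag, Ankle2 and Dnmt1, Cebpb to Haghl, Pcbp2 and Plscr3, Cebpd to C2cd5, Nup88 and Arrb2, and Gfi1 to Epor, Phospho2 and Ddx52.

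Relatives and partners of the factors were read in 5 lists, with 1.71% of all genes called as the measure. Of 11 ETS, GFI and IRF relatives, 1 was called lower and 0 higher, and the median log2 fold change was -0.01 against 0.24 for all genes. The lower one was Irf4, the IRF of plasma cells and of activated lymphocytes, at 9.84, 7.57 and 9.70 FPKM in Gdpd3+/+ and at 3.23, 2.10 and 2.57 FPKM in Gdpd3-/- libraries (log2 fold change -1.75, SE 0.22, limma adjusted p = 0.0275). The call was lost without Gdpd3+/+ replicate 1, 2 or 3 (limma adjusted p = 0.187, 0.148 and 0.184) and with no intensity trend (0.0569). The median of this list was -0.07 when Gdpd3+/+ replicate 1 was left out and 0.07 when Gdpd3-/- replicate 5 was, the extremes over single libraries. The most abundant of the list were Fli1 (63.1 and 48.9 mean FPKM) and Elf1 (52.4 and 54.3). Among 10 markers of B and plasma cells, Mzb1 was called lower (80.9 and 43.4 mean FPKM, limma adjusted p = 0.0484), a call lost without any 1 library of Gdpd3+/+ (limma adjusted p = 0.233, 0.116 and 0.247) and without Gdpd3-/- replicate 5 or 6 (0.0913 and 0.0679). Mzb1 was also lost with a pseudocount of 1 (limma adjusted p = 0.0575), no filter (0.0654), no intensity trend (0.139) and array weights (0.165). Their summed level was 2270, 2110 and 2730 FPKM in Gdpd3+/+ and 1040, 1010 and 1830 FPKM in Gdpd3-/- libraries, led by Jchain at 2200 and 1160 mean FPKM, with a median of -0.78. Of the 10 markers 4 lay below and 2 above without overlap, beside 8.27% and 23.5% of all genes, the latter being Cd79b (39.7 and 53.1 mean FPKM) and Ebf1 (0.0724 and 0.523). Without Gdpd3-/- replicates 5 and 6 the median was 0.15, with 2 called higher and 0 lower, when 10.2% of all genes were called. It was -0.43 without replicate 6 alone. The defining B cell marker Pax5 was at 0.0517 mean FPKM in Gdpd3+/+ and 0.0581 in Gdpd3-/- cells, and it was at 0 in Gdpd3-/- replicates 5 and 6. The part of these cells in the level of Irf4 was not tested.

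Of 9 C/EBP relatives and modulators, 0 were called by limma (2 at an unadjusted p under 0.05), with a median of 0.13. Cbfb had 46.8 and 54.1 mean FPKM and Id2 46.2 and 36.6. Of 7 KLF relatives 0 were called (1 at an unadjusted p under 0.05), with a median of 0.12. That 1 was Klf2, at 9.94, 12.7 and 9.93 FPKM in Gdpd3+/+ and 18.7, 20.2 and 39.7 FPKM in Gdpd3-/- libraries (log2 fold change 1.19, limma adjusted p = 0.0912). Klf6 was at 22.5, 23.8 and 24.2 FPKM in Gdpd3+/+ and 30.4, 28.1 and 63.2 FPKM in Gdpd3-/- libraries, with replicate 7 the highest, as for Irf8. Klf10 had 34.5 and 28.2 mean FPKM. The MYB relatives Mybl2, a cell cycle factor (13.3 and 8.09 mean FPKM), and Mybl1 (0.192 and 0.134) were not called, with 1 of 2 at an unadjusted p under 0.05 and a median of -0.53. In the MYC network 10 of 11 genes were tested (Mycl was below the filter) and 0 were called, with 3 at an unadjusted p under 0.05 and a median of 0.15. Mycn had 38.4 and 43.3 mean FPKM and the MYC partner Max 27.4 and 33.2. Without Gdpd3-/- replicate 7, when 14.2% of all genes were called, 1 C/EBP relative was called lower and 1 KLF relative higher. Then 2 ETS, GFI and IRF relatives, 1 MYB relative and 2 MYC network genes were called lower.

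These small medians moved with single libraries. That of the KLF relatives was 0.31 without Gdpd3-/- replicate 7, -0.03 without replicate 5, 0.05 without Gdpd3+/+ replicate 3, 0.21 without Gdpd3+/+ replicate 1 and -0.06 with TMM-like scaling. For the C/EBP relatives it was -0.02 without Gdpd3+/+ replicate 1, 0.20 without Gdpd3+/+ replicate 3, 0.07 without Gdpd3-/- replicate 6 and -0.06 with TMM-like scaling. For the MYC network it was 0.07 without Gdpd3-/- replicate 7 and -0.04 with TMM-like scaling, and for the MYB relatives it was -0.91 with quantile normalization. No direction is read from them.

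Known targets held most of the calls among the lists. Of 24 PU.1 and C/EBP targets, 9 were called lower and 0 higher, beside 0.616% and 1.09% of all genes. The median log2 fold change of the 24 was -1.03, against 0.24 for all genes. Without overlap 18 of the 24 lay below and 1 above, beside 8.27% and 23.5% of all genes. The one above was Csf2rb (19.7 and 28.2 mean FPKM, limma adjusted p = 0.0665). Csf1r (4.39 and 5.71 mean FPKM), Csf3r (35.5 and 35.6), Fcer1g (132 and 130) and Lyz2 (1170 and 1020) overlapped between genotypes. The cathelicidin gene Camp was at 1770, 1590 and 1670 FPKM in Gdpd3+/+ and at 697, 349 and 352 FPKM in Gdpd3-/- libraries (log2 fold change -1.93, SE 0.27, limma adjusted p = 0.0334). Elane, which encodes neutrophil elastase, was at 2920, 3380 and 3140 FPKM and at 511, 1090 and 1150 FPKM (log2 fold change -1.87, SE 0.31, limma adjusted p = 0.0477). For both genes every Gdpd3-/- library was lower, but replicate 5 was the highest of them for Camp and the lowest for Elane. Ngp, a secondary granule gene, fell from 3330 to 1020 mean FPKM (limma adjusted p = 0.0492) and Ms4a3, a gene of granulocyte-monocyte progenitors, from 263 to 78.7 (limma adjusted p = 0.0233). The other called genes were Prtn3, Ltf and the NADPH oxidase genes Ncf1, Ncf4 and Cybb. Without Gdpd3+/+ replicate 1, 2 or 3 in turn, 0 of the 24 were called, and the adjusted p of the 9 genes then lay between 0.0638 (Ncf1) and 0.247 (Ngp). Camp, Elane and Ngp were also lost without Gdpd3-/- replicate 6 (limma adjusted p = 0.0533, 0.0544 and 0.0667), and Ncf4 without replicate 5 (0.0820). With no intensity trend 1 of the 24 was called, Ncf1, with no filter 3 were, with a pseudocount of 1 it was 5 and with quantile normalization 8, when Elane and Ngp were lost (limma adjusted p = 0.0943 for each). Without Gdpd3-/- replicate 7 it was 14 lower and 1 higher, when 14.2% of all genes were called in either direction. With neither Gdpd3-/- replicate 5 nor 6 it was 13 lower and 1 higher, when 10.2% of all genes were. The list shares Camp, Ltf, Ngp and Lcn2 with the mature neutrophil markers above.

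Promoter sequences from RefSeq (GRCm38.p6) were at hand for 6 of the 10 factors (Cebpa, Cebpb, Gfi1, Irf8, Klf4 and Myb) and for 8 of the 9 called PU.1 and C/EBP targets, and the 250 bases before each start were searched on both strands. The letters GAGGAAGT, a PU.1 motif, were found in 2 of the 8 targets, and in 2.44% of 32851 promoters of the same length. TTNNGNAA, a C/EBP motif, was found in 3 of the 8 targets and in 36.8% of all promoters, CACGTG, the MYC E-box, in 6.02%, AACNG (MYB) in 74.2%, an IRF motif of 10 letters in 2.98% and GGGNGNGG (KLF) in 45.9%. Some of these motifs can overlap each other. The sequences below are those of Elane and Prtn3, which hold the PU.1 letters, of Ltf and Ngp, which hold C/EBP letters, and of Klf4 and Cebpb, which were higher in each Gdpd3-/- library. They were chosen after the matches were seen. They run 5′ to 3′ on the strand of the gene, and capitals mark matches to GAGGAAGT, TTNNGNAA or CACGTG on either strand.
Elane (chr10:79886062-79886311, plus strand): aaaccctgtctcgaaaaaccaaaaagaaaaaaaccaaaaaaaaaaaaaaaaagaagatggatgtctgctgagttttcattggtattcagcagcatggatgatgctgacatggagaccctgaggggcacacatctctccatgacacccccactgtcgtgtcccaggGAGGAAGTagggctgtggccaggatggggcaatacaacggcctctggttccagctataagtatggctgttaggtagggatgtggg
Prtn3 (chr10:79879417-79879666, plus strand): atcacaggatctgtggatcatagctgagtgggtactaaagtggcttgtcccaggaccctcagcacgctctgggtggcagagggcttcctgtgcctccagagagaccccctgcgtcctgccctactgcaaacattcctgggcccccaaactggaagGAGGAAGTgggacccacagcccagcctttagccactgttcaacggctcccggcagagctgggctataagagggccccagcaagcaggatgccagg
Ltf (chr9:111019042-111019291, plus strand): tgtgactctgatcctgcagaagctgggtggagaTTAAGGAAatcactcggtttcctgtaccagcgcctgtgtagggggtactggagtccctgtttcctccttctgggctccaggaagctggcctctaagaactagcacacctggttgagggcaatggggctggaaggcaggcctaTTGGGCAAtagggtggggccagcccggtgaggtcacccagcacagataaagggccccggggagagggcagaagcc
Ngp (chr9:110419558-110419807, plus strand): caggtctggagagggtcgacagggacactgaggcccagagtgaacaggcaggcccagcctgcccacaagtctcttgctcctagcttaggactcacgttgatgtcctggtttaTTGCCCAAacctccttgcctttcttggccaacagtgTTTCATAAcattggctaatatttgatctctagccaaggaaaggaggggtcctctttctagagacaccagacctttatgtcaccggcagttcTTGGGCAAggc
Klf4 (chr4:55532476-55532725, minus strand): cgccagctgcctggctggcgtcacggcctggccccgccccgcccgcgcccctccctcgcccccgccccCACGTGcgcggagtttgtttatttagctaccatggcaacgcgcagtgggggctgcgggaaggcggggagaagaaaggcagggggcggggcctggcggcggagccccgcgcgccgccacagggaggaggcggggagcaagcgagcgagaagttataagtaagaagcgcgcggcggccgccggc
Cebpb (chr2:167688665-167688914, plus strand): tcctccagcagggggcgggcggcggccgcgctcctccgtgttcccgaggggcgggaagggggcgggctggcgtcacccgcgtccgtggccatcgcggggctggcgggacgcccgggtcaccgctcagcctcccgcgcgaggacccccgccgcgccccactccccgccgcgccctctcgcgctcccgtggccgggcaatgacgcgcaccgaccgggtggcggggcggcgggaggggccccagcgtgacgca

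Klf4 held 1 CACGTG and 9 KLF matches, and Cebpb held 6 KLF matches and none of the capitalised motifs. The first Irf8 start held 5 KLF matches and the second none. A match is a run of letters and does not show that a factor binds there.

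Monocyte and dendritic genes tied to Irf8 and Klf4 were read next. Of 12, 1 was called lower and 0 higher (8 at an unadjusted p under 0.05), beside 0.616% and 1.09% of all genes. Without Gdpd3-/- replicate 7 it was 1 lower and 2 higher, when 14.2% of all genes were called in either direction. Without replicate 6 it was 1 lower and 1 higher, when 1.94% were. The median of the 12 was 0.17 against 0.24 for all genes. Without overlap 5 lay above and 4 below, as did 23.5% and 8.27% of all genes. Those above were Ly86 (6.74 and 16.1 mean FPKM in Gdpd3+/+ and Gdpd3-/- cells) and Cst3 (196 and 311). Batf3 (0.228 and 1.55), Ciita (0.38 and 1.02) and Siglech (0.138 and 1.15) lay above as well, at low levels. Those below were Ly6c2, F13a1, Zeb2 and Cd74. The median was between 0.08 (without Gdpd3-/- replicate 5) and 0.28 (without replicate 7) when 1 library was left out, and -0.03 with TMM-like scaling. The gene called lower was Ly6c2. It was at 1730, 1730 and 1800 FPKM in Gdpd3+/+ and at 437, 667 and 660 FPKM in Gdpd3-/- libraries (log2 fold change -1.60, SE 0.18, limma adjusted p = 0.0222). This call was lost without Gdpd3+/+ replicate 1, 2 or 3 (limma adjusted p = 0.157, 0.148 and 0.153) and with no intensity trend (0.0628). Its near-identical copy Ly6c1 may share reads with it. Cd74 had 283 and 229 mean FPKM. Of 10 monocyte and macrophage markers, Ly6c2 and the adhesion gene Vcam1 (18.1 and 2.84 mean FPKM, limma adjusted p = 0.0487) were called lower and 0 higher. Of all genes 0.616% and 1.09% were, and the median of these markers was 0.19. Vcam1 was lost without any 1 library of Gdpd3+/+ (limma adjusted p = 0.242, 0.212 and 0.247) and without Gdpd3-/- replicate 5 (0.0897), and with a pseudocount of 1 (0.0506), no filter (0.0696), quantile normalization (0.0550) and no intensity trend (0.110). The median of these markers was 0.02 without Gdpd3-/- replicate 7 and with quantile normalization. Their summed level, nearly all of it Ly6c2, was 1800, 1800 and 1880 FPKM in Gdpd3+/+ and 524, 728 and 741 FPKM in Gdpd3-/- libraries. Csf1r and Adgre1, defining markers, were at 4.39 and 5.36 mean FPKM in Gdpd3+/+ and 5.71 and 3.38 in Gdpd3-/- cells, and Marco was at 0 in all 3 Gdpd3+/+ libraries. The part of such cells in the levels of Irf8 and Klf4 was not tested.

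Of 10 MYB targets, 1 was called higher and 1 lower, beside 1.09% and 0.616% of all genes, with a median of -0.07. Cd34, the stem and progenitor surface gene, was at 111, 111 and 105 FPKM in Gdpd3+/+ and at 187, 195 and 221 FPKM in Gdpd3-/- libraries (log2 fold change 0.88, SE 0.10, limma adjusted p = 0.0204). Its adjusted p was 0.0665 with quantile normalization and 0.153, 0.148 and 0.158 without Gdpd3+/+ replicate 1, 2 or 3, and that of Elane was then 0.238, 0.225 and 0.244. With no intensity trend it was 0.0926 for Cd34 and 0.110 for Elane, and Elane was also lost with quantile normalization (limma adjusted p = 0.0943), a pseudocount of 1 (0.0618), no filter (0.0755) and without Gdpd3-/- replicate 6 (0.0544). The list therefore held 0 calls with quantile normalization or no intensity trend, and its median was between -0.10 (without Gdpd3+/+ replicate 1) and -0.03 (without Gdpd3+/+ replicate 3) when 1 library was left out. The lower one was Elane, and Mpo, next in level, had 2030 and 594 mean FPKM (limma adjusted p = 0.0611). Of 28 MYC targets 0 were called by limma (7 at an unadjusted p under 0.05), with a median of 0.02. Without Gdpd3-/- replicate 7, when 14.2% of all genes were called, 3 MYC targets were called higher and 2 lower. Of the MYB targets 1 was then called higher and 3 lower. Ldha, which encodes lactate dehydrogenase, had 468 and 512 mean FPKM and Npm1 243 and 283. The median of the MYC targets was 0.12 without Gdpd3-/- replicate 5, -0.03 without replicate 6, replicate 7 or Gdpd3+/+ replicate 3, and -0.17 with TMM-like scaling.

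**Figure D4:**
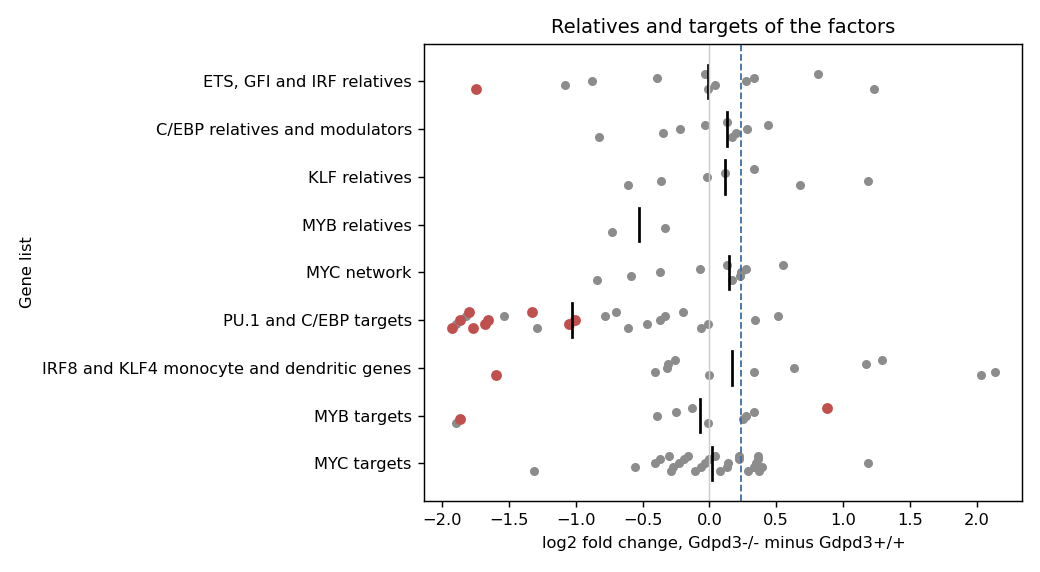
Log2 fold change, Gdpd3-/- minus Gdpd3+/+, of each tested gene in 9 lists of relatives and targets, with genes at a limma adjusted p under 0.05 in red, the list's median as a black bar and the median of all tested genes (0.24) as a dashed line. The PU.1 and C/EBP targets have a median of -1.03, and 9 of 24 are red.

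Markers of other cells differed between libraries as well. All 12 skeletal muscle markers were higher in each Gdpd3-/- library than in each Gdpd3+/+ library, as were 23.5% of all genes. The median log2 fold change of the 12 was 2.85. With all libraries 0 passed the adjusted threshold in limma (12 at an unadjusted p under 0.05). When Gdpd3-/- replicate 7 was left out 12 passed it, beside 14.2% of all genes. Without replicates 5 and 6 it was 1 of 12, beside 10.2% of all genes, with a median of 1.08. Their summed level was 1430, 1000 and 969 FPKM in Gdpd3+/+ and 12500, 17900 and 2380 FPKM in Gdpd3-/- libraries, led by Acta1, and none was at 0 throughout. They took 0.126% to 0.185% of the signal in Gdpd3+/+ and 1.62%, 2.32% and 0.306% in Gdpd3-/- libraries. Replicate 7, with the lowest muscle level of the Gdpd3-/- libraries, had the highest Spi1, Irf8, Myb and Myc of the 6 libraries and the highest Cebpa and Cebpe among the Gdpd3-/- ones, and not the highest Cebpb, Cebpd, Gfi1 or Klf4 of these. With replicates 5 and 6 left out together, Cebpe had a log2 fold change of -1.37 (limma adjusted p = 0.0344), and 2 of the 10 factors were called, Cebpe and Irf8, where 10.2% of all genes were called against 1.71% with all 6 libraries. Cebpa (0.06) and Myb (0.10) then turned sign, with limma adjusted p = 0.871 and 0.417. The part of muscle RNA in the levels of the factors was not tested.

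The remaining lists held no calls with all 6 libraries. Without Gdpd3-/- replicate 7, when 14.2% of all genes were called, 2 erythroid markers and 1 T cell marker were called lower. Of 10 erythroid markers 0 were called by limma (0 at an unadjusted p under 0.05), with a median of -0.54 and summed levels of 4980, 3720 and 3170 FPKM in Gdpd3+/+ and 1970, 3200 and 4950 FPKM in Gdpd3-/- libraries, led by Hba-a1, whose reads can be split with its copy Hba-a2. The erythroid median was -0.11 without Gdpd3-/- replicate 5, -0.89 without replicate 7 and 0.24 without replicates 5 and 6. Of 7 megakaryocyte markers 0 were called (2 at an unadjusted p under 0.05), with a median of 0.15, summed levels of 349, 439 and 439 FPKM in Gdpd3+/+ and 342, 648 and 362 FPKM in Gdpd3-/- libraries, and Pf4 as the most abundant (193 and 189 mean FPKM). This median turned to -0.12 without Gdpd3-/- replicate 6, -0.17 without replicates 5 and 6, -0.04 with TMM-like scaling and -0.15 with quantile normalization. Of 8 T cell markers 7 were tested and 0 called (0 at an unadjusted p under 0.05), with Lck as the most abundant and summed levels between 4.91 and 13.3 FPKM over the 6 libraries. The part of these cells in the result was not tested.

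**Figure D5:**
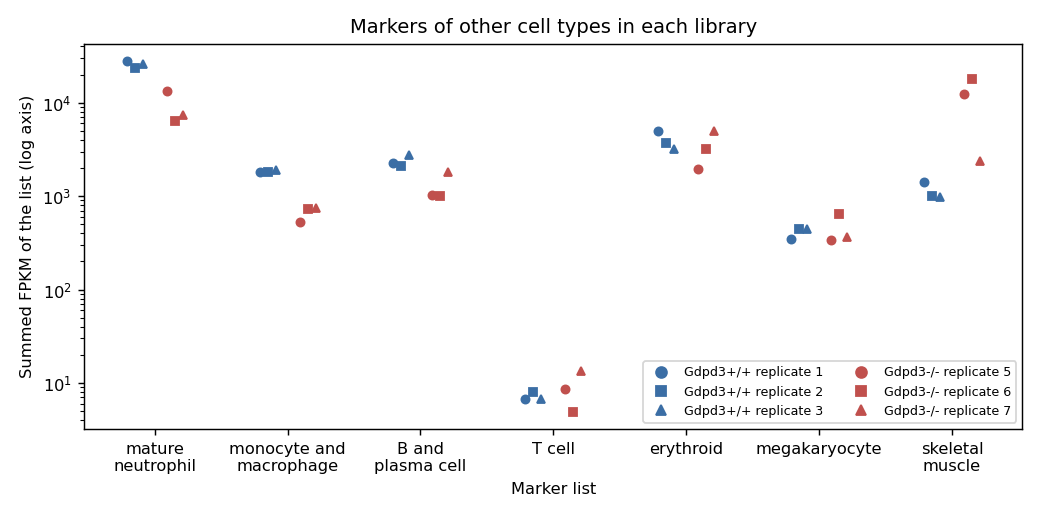
Summed FPKM of 7 marker lists in each library on a log axis, 3 libraries for each genotype. The neutrophil sum is lower in the Gdpd3-/- libraries (6380 to 13300 against 23600 to 27600), and the muscle sum is higher in them (2380 to 17900 against 969 to 1430).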

How the data were processed

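RNA of sorted cells was made into cDNA with a SMART-Seq kit. The submitters' processing notes name Trimmomatic, Trim Galore, cutadapt 1.16, STAR 2.6.1a, featureCounts 1.6.1, DESeq2 and genome build mm9, without the strand of counting. The authors deposited FPKM values for 36976 genes, and 87.5% of gene identifiers matched current symbols. Depth was inferred from the values: FPKM times length stepped by a constant, and 100% of low values came out whole within 0.01, which, taken as covered bases (an assumption), gives totals of 4.98, 6.28 and 6.13 Gb in Gdpd3+/+ and 2.13, 3.64 and 2.51 Gb in Gdpd3-/- libraries. The authors also deposited a DESeq2 table of base means, fold changes and p-values, which was not used.

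Here log2(FPKM + 0.1) was tested with limma 3.58.1 (R 4.3.3) with an intensity trend, and exact permutation tests used SciPy 1.17.1. The fit was tested on simulated data, also, in a simulation added after the results were seen, with the wider spread of the Gdpd3-/- libraries, where it recovered fewer changed genes and made more false calls, some of them where no gene had been changed. Alternatives were other pseudocounts, filters and scalings, no trend, array weights and leaving out libraries. Named genes were the factors, Gdpd3, the called (at most 4, by size of change) and the 2 most abundant genes of each list, the 3 genes nearest to each factor, and cell type markers. Genes of a list named beyond these were chosen after their values were seen. Members and lists were chosen with earlier results of these data known. Of the genes this rule names, 2 are not reported here.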

Additional observations from a re-analysis of the deposited data

How the results depend on the processing

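No paired analysis was possible because the genotypes share no replicate number. Against 422 genes called, the number was 225 with a pseudocount of 1, 213 with no filter, 673 with a mean FPKM of at least 1, 153 with no intensity trend, 240 with array weights and 2294 without Gdpd3-/- replicates 5 and 6 (chosen after the data were seen), and it ran from 0 to 3413 when 1 library was left out. The causes were not tested. Of the 10 factors 1 was called, from 0 to 1 when 1 library was left out (0 without Gdpd3+/+ replicate 1, 2 or 3), 2 without Gdpd3-/- replicates 5 and 6, and 1 under each other alternative. Spi1 turned from 0.13 to -0.07 with TMM-like scaling and -0.01 with quantile normalization on the log2 scale. Cebpa turned to 0.06 and Myb to 0.10 without Gdpd3-/- replicates 5 and 6. The within-library ratios kept their direction without any 1 library, with the Klf4 to Irf8 difference between 0.09 and 0.64 and the Cebpa to Spi1 difference between -0.83 and -0.35.

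If the whole steps in the deposited values are covered bases, which is an assumption, depth was lower in the Gdpd3-/- libraries. Klf4, Cebpa and there also Cebpe then rested on few reads. The strand of counting was not stated, so reads of Cebpb, Gfi1, Myb and Gdpd3 cannot be told apart from those of Tmem189, A430072P03Rik, Gm16786 and Gm9967, whose exons share 312, 101, 491 and 190 bases with them. The groups hold 3 libraries each, and the sexes and numbers of pooled mice differ between them.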
